A study of Mus musculus with 4 samples.

Results

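The RNA exosome, the complex that degrades and trims RNA from its 3' end, was followed here through the mRNA levels of 10 of its subunits in mouse embryonic stem cells with and without Drosha. The 10 genes, Exosc1, Exosc2, Exosc3, Exosc4, Exosc5, Exosc7, Exosc8, Exosc9, Exosc10 and Dis3, were taken by symbol from the 43629 gene identifiers of the count data, and all 10 passed the filter on low counts. The members were selected on their log2 fold changes between knockout and wild type in these same 4 libraries, so those differences are given as descriptions, without a test. Exosc6, the remaining ring gene, was not analysed here.

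The study measured poly(A) RNA in 4 libraries of embryonic stem cells on a 129/Ola background, all kept in serum with LIF. DROSHA is the nuclear RNase that, with its partner DGCR8, cuts primary microRNA transcripts. The knockouts were made with paired CRISPR/Cas9 cuts: the deletion in KO1 takes out the proline-rich part of Drosha and that in KO2 the arginine- and serine-rich part, and both lines were at passage 7. The knockout titles also carry a mark, d5, that the labels do not explain and that the wild-type titles lack. WT1 and WT2 are wild-type E14 cells, an established mouse embryonic stem cell line, at passages 33 and 42, and both are labelled as re-used. The 2 knockout libraries are thus 2 different alleles with 1 library each, and the wild types are 2 passages with 1 library each. No allele or passage has a replicate culture. Genotype, passage and the origin of the libraries coincide and cannot be told apart.

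The exosome is a barrel through which RNA is threaded. A cap of proteins with RNA-binding folds (EXOSC1, EXOSC2 and EXOSC3) sits on a ring of proteins that resemble bacterial RNase PH (EXOSC4 to EXOSC9) but no longer cut RNA themselves in mammals. Cutting is done by the exonucleases EXOSC10, bound near the cap and found mainly in the nucleus, and DIS3, bound at the bottom of the barrel. In the nucleus the complex trims ribosomal RNA and small nucleolar RNA precursors and clears promoter and enhancer transcripts. Helicase complexes unwind its substrates, MTREX (MTR4) in the nucleus and the SKI complex in the cytoplasm.

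Library totals ran from 29264632 to 42322129 counts. Levels are given as CPM, the counts of a gene scaled to a common library size with TMM factors. Fold changes are log2 values, positive where the knockouts are higher, with the standard error (SE) of the edgeR fit. The KO pair was much closer than the WT pair: the chi-square per degree of freedom was 2.26 over 14837 genes for KO1 and KO2 and 167 over 14688 genes for WT1 and WT2. The spread within groups, against which differences between them are judged, therefore came mainly from the wild-type pair. Drosha itself stood at 158 and 158 CPM in KO1 and KO2 and at 364 and 357 CPM in WT1 and WT2 (log2 fold change -1.19 ± 0.11 SE, adjusted p = 0.0482). Reads outside the deleted regions still count, so the remaining level does not measure the lost parts. Dgcr8, whose mRNA the DROSHA and DGCR8 complex is known to cut, was at 227 and 233 CPM against 100 and 114 CPM (1.10 ± 0.13 SE, adjusted p = 0.0482). Summed pluripotency markers (8 of 8 tested) were at 6540 and 6600 CPM in KO1 and KO2 and at 5570 and 6350 CPM in WT1 and WT2. The libraries also differed in other cell-type markers. Primitive endoderm markers (8 of 9 tested, 3 lower past the threshold) summed to 68.6 and 68.2 CPM in KO1 and KO2, and to 242 and 416 CPM in WT1 and WT2. Neural markers (4 of 5 tested, 2 higher past the threshold, Dcx at 0 in every library) summed to 87.7 and 86.5 CPM against 44.4 and 50 CPM. Over all genes tested, 3.51% were called higher and 1.94% lower. Both knockouts lay above both wild types for 3 neural markers and below for 1 (36.5% and 34.8% over all genes). The neural median log2 fold change was 1.01, but 0.11 with the GC and length trends described below removed. Fibroblast markers (6 of 8 tested) summed to 58.3 and 53.4 CPM against 39.9 and 32.4 CPM, and trophoblast markers (2 of 5 tested) to 4.34 and 4.55 CPM against 5.21 and 7.02 CPM. Their part in the exosome values was not tested, and in such bulk RNA fewer cells of a type and less RNA per cell cannot be told apart.

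Of the 10 subunits, Exosc4 and Exosc5 of the ring stood higher in the knockouts, at 2.98-fold and 3.65-fold the wild-type level, and Dis3 stood lower, with the wild types 1.75-fold above the knockouts. The other 7 had log2 fold changes between -0.42 and 0.08. Exosc4 and Exosc5 were past the threshold of the fit over all genes (adjusted p under 0.05), where 5.45% of the 17022 genes tested were called, 3.51% higher and 1.94% lower. Since the comparison chose the members, nothing is read from that count, which was 0 without KO1 or without KO2, with upper-quartile scaling and with library totals alone. Both KO libraries lay above both WT libraries for 2 subunits and below them for 4, and the groups overlapped for 4. Over all genes tested these shares were 36.5% above and 34.8% below. The median log2 fold change of the subunits was -0.15, beside -0.02 for all genes tested.

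**Figure D1:**
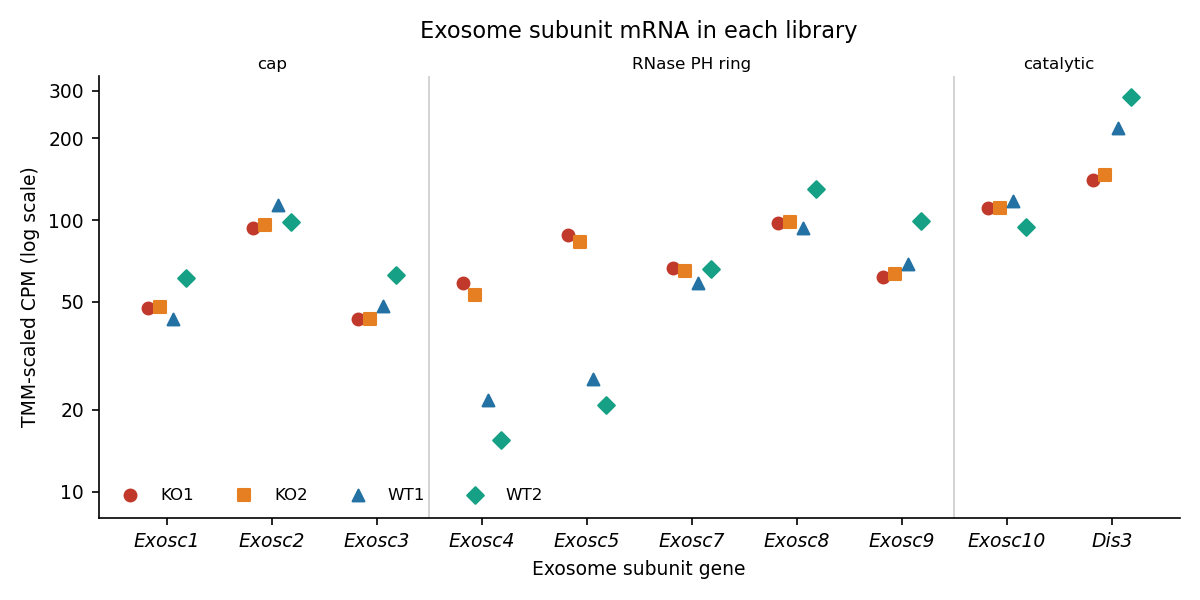
Level of each exosome subunit mRNA in each library, as TMM-scaled CPM on a log axis. Each point is 1 library, and there are no error bars. The knockout points of Exosc4 and Exosc5 lie above, and those of Dis3 below, both wild-type points, while KO1 and KO2 nearly coincide for every subunit.

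Exosc4 (ENSMUSG00000034259, mm10 chr15:76327397-76330677, plus strand), a ring subunit known in yeast as RRP41, was measured at 58.4 and 52.8 CPM in KO1 and KO2 and at only 21.8 and 15.5 CPM in WT1 and WT2. The lower of the knockouts was thus well above the higher of the wild types. Its log2 fold change was 1.58 ± 0.22 (SE), with means of 55.6 ± 4.02 CPM (SD, n = 2) and 18.6 ± 4.43 CPM (SD, n = 2). Of the 50-base stretches of its principal transcript, 11.8% also occur, on either strand, in transcripts of other annotated genes, 345 in number, so a part of its reads may be shared with them.

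The 3' UTR of Exosc4 holds matches to microRNAs whose making needs DROSHA, and these are shown because the libraries differ in that enzyme. Chosen examples are given from RefSeq (GRCm38.p6), not every microRNA with these seeds (bases 2 to 8, in capitals). They are from the embryonic stem cell cluster with the seed AAGUGCU and from the miR-17 family with AAAGUGC.
mmu-miR-291a-3p: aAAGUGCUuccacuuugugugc
mmu-miR-294-3p: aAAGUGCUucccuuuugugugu
mmu-miR-295-3p: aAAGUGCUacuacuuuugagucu
mmu-miR-17-5p: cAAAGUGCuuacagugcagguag
mmu-miR-106a-5p: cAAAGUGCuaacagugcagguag

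The letters AGCACTT, complementary to bases 2 to 8 of the miR-291a, miR-294 and miR-295 group, were found in the 3' UTR of Exosc4 at bases 62 to 68 and 124 to 130 of 962, and in that of Exosc1 at bases 26 to 32 of 416. The letters GCACTTT, complementary to bases 2 to 8 of miR-17 and miR-106a, occurred in Exosc4 alone among the subunits, at bases 583 to 589. The sites are given with 10 bases on either side and the match in capitals, on the strand of the gene.
Exosc4, chr15:76329777-76329783, plus strand: cttactgtacAGCACTTaaaagctgct
Exosc4, chr15:76329839-76329845, plus strand: aagtggagagAGCACTTgtgctaggaa
Exosc4, chr15:76330298-76330304, plus strand: gcaatggtagGCACTTTccctctattt
Exosc1, chr19:41923950-41923956, minus strand: agaggacttcAGCACTTcagctacttc

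Among 13964 annotated 3' UTRs of tested genes, 2082 (14.9%) hold AGCACTT at least once and 351 (2.51%) hold it 2 or more times, and 1769 (12.7%) hold GCACTTT. No subunit holds CTACCTC, the match to the seed of let-7, which 9.19% of the UTRs hold. Exosc5 has a 3' UTR of 240 bases and none of these matches. Any part of such matches in the levels of the subunits was not tested. A match describes letters and is no measure of targeting, and no small RNA was measured here.

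Exosc5 (ENSMUSG00000061286, chr7:25659164-25671368, plus strand), the ring subunit known as RRP46, stood at 88.2 and 82.9 CPM in the KO1 and KO2 libraries, with WT1 at 26.0 and WT2 at 20.8 CPM. Again the knockouts lay far above both wild types, and KO1 and KO2 differed from each other by only -0.09 on the log2 scale. The log2 fold change was 1.87 ± 0.17 (SE), with means of 85.5 ± 3.74 CPM (SD, n = 2) and 23.4 ± 3.69 CPM (SD, n = 2). None of its 50-base stretches occur in another annotated gene.

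The remaining ring subunits, Exosc7, Exosc8 and Exosc9, had small differences. Exosc7 (chr9:123113215-123136129) was at 66.8 and 65.0 CPM in KO1 and KO2 and at 58.5 and 66.1 in the 2 wild types, with overlap of the groups (0.08 ± 0.13 SE). Exosc8 (chr3:54728678-54735393) was at 97.3 and 98.1 CPM against 93.4 and 130 CPM, again with overlap (-0.19 ± 0.20 SE). Exosc9 (chr3:36552606-36565727) was at 61.9 and 63.5 CPM against 68.6 and 99.3 CPM, with both knockouts below both wild types but the wild types far apart (-0.42 ± 0.22 SE). Its 3' end overlaps Ccna2 and 18.2% of the stretches of its principal transcript occur in that gene, which stood at 237 and 236 CPM against 325 and 478 CPM. For these 3 genes the spread between WT1 and WT2 was as large as the difference between the groups or larger. The summed level of the ring was 373 and 362 CPM in KO1 and KO2 and 268 and 331 CPM in WT1 and WT2. Without Exosc4 and Exosc5 it was 226 and 227 CPM against 220 and 295 CPM.

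The 3 cap genes were close between the groups. Exosc1 (chr19:41922292-41933423), which encodes the subunit called CSL4 in yeast, was at 47.3 and 48.0 CPM in KO1 and KO2, between the 43.1 CPM of WT1 and the 61.0 CPM of WT2. Exosc2 (chr2:31670715-31681349), the RRP4 subunit, was at 93.3 and 96.0 CPM against 114 and 98.5 CPM (-0.16 ± 0.13 SE). Exosc3 (chr4:45316613-45342732), the RRP40 subunit, was at 43.2 and 43.3 CPM against 48.3 and 62.6 CPM (-0.36 ± 0.17 SE). For Exosc2 and Exosc3 both knockouts lay below both wild types, and the gap between the groups was smaller than that between the wild types. The cap sum was 184 and 187 CPM in KO1 and KO2 against 205 and 222 CPM.

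Of the catalytic subunits only Dis3 was separated between the groups. Dis3 (ENSMUSG00000033166, chr14:99075206-99099770, minus strand), the exonuclease at the base of the barrel, was read at 141 CPM in KO1 with 146 CPM in KO2, and at 219 CPM in WT1 with 284 CPM in WT2. Both knockouts were below both wild types, and the wild types differed by 0.37 on the log2 scale. Its log2 fold change was -0.81 ± 0.17 (SE), with means of 143 ± 3.08 CPM (SD, n = 2) and 251 ± 45.5 CPM (SD, n = 2), and it was not past the threshold. Against WT1 alone the value was -0.60 and against WT2 alone -0.98. Exosc10 (chr4:148558429-148582401), the nuclear exonuclease known as RRP6, was at 111 and 111 CPM against 118 and 94.0 CPM, with overlap (0.07 ± 0.16 SE). The catalytic sum was 252 and 256 CPM against 337 and 378 CPM. Summed over all 10 genes, CPM came to 809 and 806 for KO1 and KO2, 810 for WT1 and 931 for WT2, so the total of the knockouts was close to that of WT1 and below that of WT2.

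The knockout alleles gave nearly the same subunit levels. Log2 ratios of KO2 over KO1 ran from -0.15 for Exosc4 to 0.04, while those of WT2 over WT1 ran from -0.49 for Exosc4 to 0.53 for Exosc9. For Exosc4 the log2 fold change was 1.35 over WT1 alone and 1.83 over WT2 alone, and for Exosc5 it was 1.72 and 2.03. With KO1 or KO2 alone it was 1.66 and 1.51 for Exosc4, and 1.92 and 1.83 for Exosc5. Thus the size of both differences moved more with the choice of wild-type library than with the allele.

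Levels were compared between subunits per kilobase of exon (CPM per kb over all annotated exons of the gene). On this scale the level ratio of the highest to the lowest subunit was 2.94 in KO1 and 3.07 in KO2, but 9.52 in WT1 and 14.2 in WT2. Exosc5 was the lowest of the 10 in both wild types, at 4.15 and 3.32 CPM per kb, and stood at 14.1 and 13.2 CPM per kb in KO1 and KO2. Exosc4 had rank 7 of 10 in WT1 and rank 9 in WT2, at 11.2 and 7.97 CPM per kb, and rank 4 in both knockouts, at 30.0 and 27.1 CPM per kb. Exosc2 and Exosc3 held the highest place in all 4 libraries and exchanged it between libraries, so their order is within the spread. Exosc7 was the lowest in the knockouts on this scale. The annotated exons of Exosc5 add up to 6268 bases and its longest transcript has 5068 bases, whereas the principal transcript has 1020 bases. With principal transcript lengths Exosc5 was the highest of the 10 in the knockouts (86.5 and 81.3 CPM per kb) and had rank 9 in the wild types (25.5 and 20.4 CPM per kb), and Exosc4 was the lowest in the wild types (12.1 and 8.63 CPM per kb). On this scale the highest to lowest ratio was 3.16 and 2.87 in KO1 and KO2 and 5.93 and 11.6 in WT1 and WT2. With principal transcript lengths Dis3, not Exosc7, was the lowest in the knockouts, and Exosc8 was the highest in the wild types. The range of levels was narrower in the knockouts on both scales, while the ranks, that of Exosc5 among them, depended on the length used. In the wild types the lower end of the range was set by Exosc5 or Exosc4. The members were selected on such differences, so nothing is read from the narrower range.

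Base composition moved with these differences. Across all tested genes the median log2 fold change climbed from -0.68 in genes under 40% GC to 1.38 in genes of 60% GC or more, and the median ratio of WT2 over WT1 went the other way, from 0.31 to -0.59. Across the 10 subunits the log2 fold change had a Pearson correlation of 0.72 (Spearman 0.77) with the GC content of the longest transcript and of 0.87 with that of the principal transcript. These are descriptions over 10 genes that share the same 4 libraries. The ratio of WT2 over WT1 had a correlation of -0.93 with GC content over the same 10 genes. Exosc4 (54.9% GC) and Exosc5 (53.8% for the longest and 61.1% for the principal transcript) are the most GC-rich subunits, and Dis3 has 43.6% GC.

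**Figure D2:**
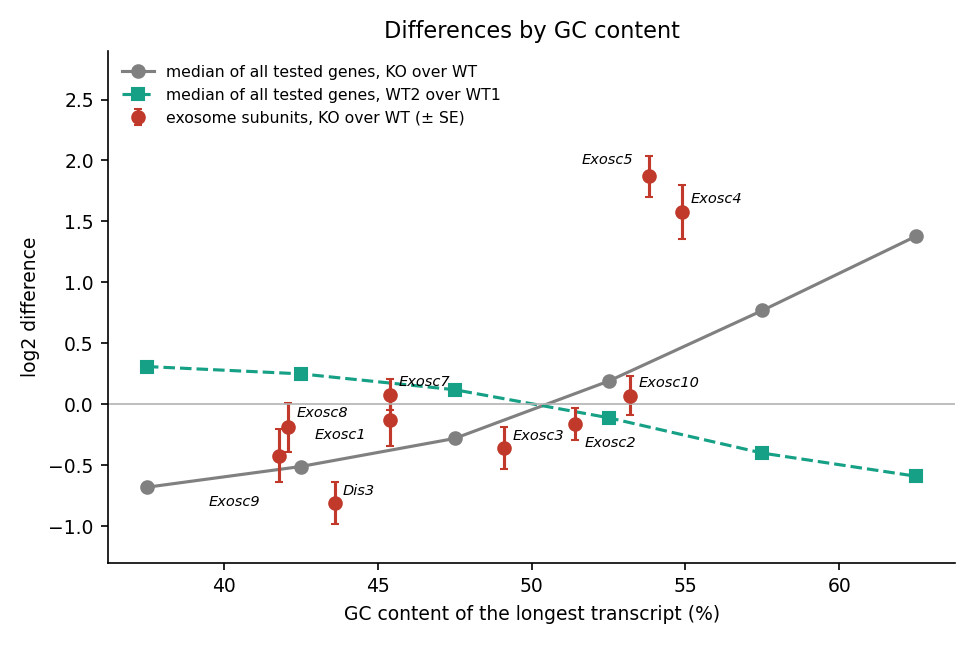
Log2 differences against the GC content of the longest transcript. Grey circles and the solid line are the median of all tested genes, knockout over wild type, in bins of 5 percentage points. Green squares are WT2 over WT1, and the lowest and highest bins are open-ended and drawn at the same spacing. Red points are the 10 subunits (± SE), and Exosc4 and Exosc5 lie above the grey line at their GC content.

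With smooth trends on GC content and length removed from each library, Exosc4 and Exosc5 still had positive log2 fold changes and Dis3 a negative one, all of them smaller. Exosc4 came to 1.04 ± 0.15 (SE) with the GC content of the longest transcript and the length of all annotated exons. With GC content and length of the principal transcript it came to 1.10 ± 0.16. Exosc5 came to 1.52 ± 0.10 and 0.51 ± 0.11, so its size rested on which GC content and length were used. GC content and length were changed together, so their parts cannot be told apart. Dis3 came to -0.34 ± 0.12 and -0.28 ± 0.12. For 5 other subunits the sign differed between the scalings: Exosc1 (-0.13, then 0.23 and 0.13), Exosc7 (0.08, then 0.45 and -0.06), Exosc8 (-0.19, then 0.32 and -0.38), Exosc9 (-0.42, then 0.11 and -0.00) and Exosc10 (0.07, then -0.24 and -0.14). Exosc2 and Exosc3 had negative values under each, from -0.16 to -0.29 and from -0.26 to -0.36. No gene of the 17022 was past the threshold after either removal by edgeR (4300 and 4022 genes had an unadjusted p under 0.05).

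**Figure D3:**
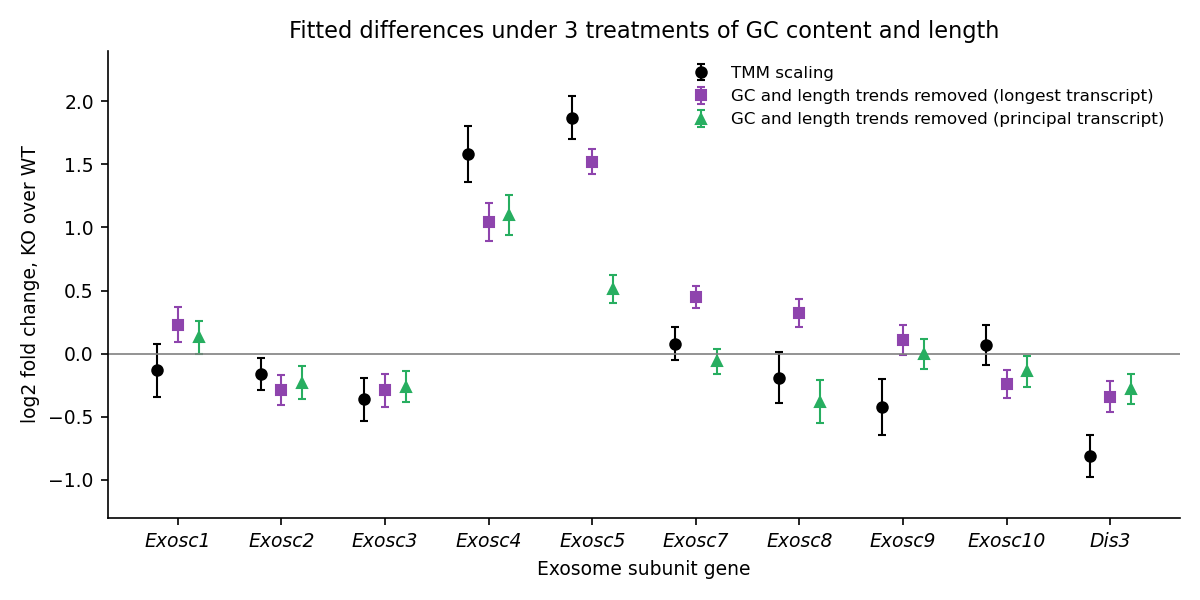
Fitted log2 fold change of each subunit, knockout over wild type, with SE, under TMM scaling alone and after 2 removals of GC and length trends. The first (marked longest transcript) used GC content of the longest transcript and length of all annotated exons. The second used GC content and length of the principal transcript. Exosc4 and Exosc5 are above 0 and Dis3, Exosc2 and Exosc3 below 0 under all 3, and the Exosc5 value falls from 1.87 to 0.51 in the last.

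Genes around Exosc4, Exosc5 and Dis3 had log2 fold changes of the same sign as the subunit. Within 100 kb of Exosc4, 12 other protein-coding genes were tested, and all 12 had positive log2 fold changes. In 11 of them both knockouts lay above both wild types (36.5% over all genes). Their median was 1.01, or 0.26 with GC and length trends removed, and their median WT2 over WT1 was -0.90. Of these, Gpaa1, which encodes a subunit of the enzyme that attaches GPI anchors, was at 84.3 and 77.1 CPM against 32.8 and 14.7 CPM (1.76 ± 0.42 SE, adjusted p = 0.0704). Chromosome 15 as a whole had a median of 0.51 over 666 genes (0.31 with trends removed), and a median WT2 over WT1 of -0.61. Around Exosc5, 7 genes were tested, 6 with both knockouts above both wild types, with a median of 0.65 (0.06 with trends removed). Chromosome 7 had a median of 0.30 over 1311 genes (0.01 with trends removed). Around Dis3, 3 genes were tested, 2 with both knockouts below, with a median of -0.46 (-0.00 with trends removed), and chromosome 14 had a median of -0.19. The part of region and chromosome in the values of the subunits was not tested.

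**Figure D4:**
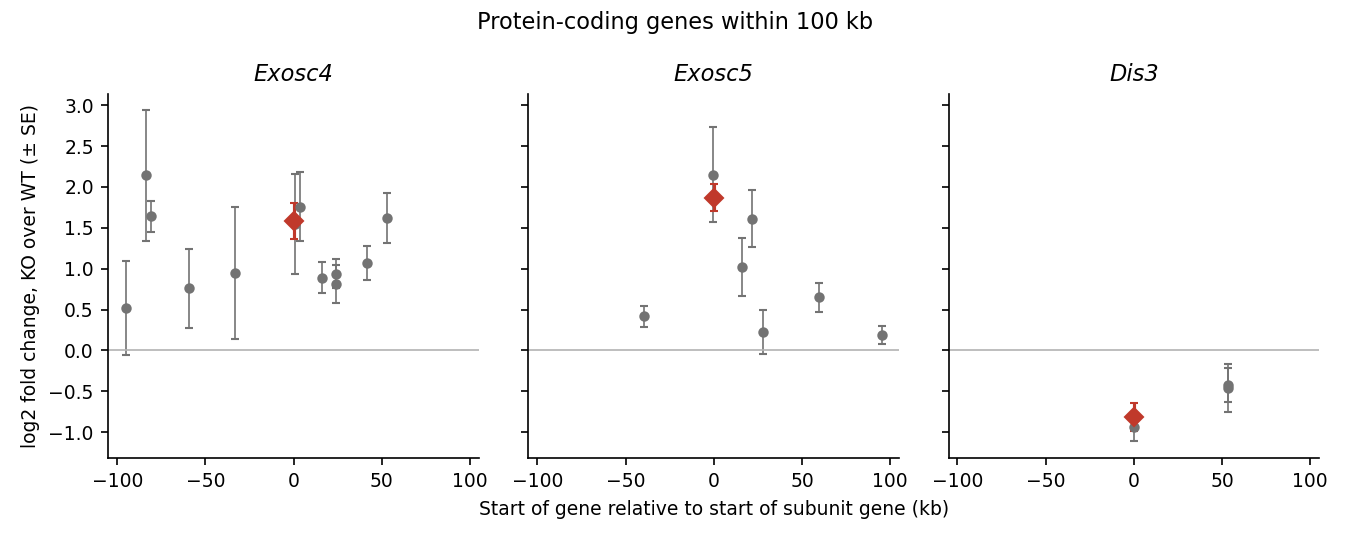
Log2 fold change (± SE) of protein-coding genes whose start lies within 100 kb of the start of Exosc4, Exosc5 or Dis3, against the distance in kb. Red diamonds are the subunits and grey points their neighbours. All neighbours of Exosc4 and Exosc5 lie above 0 and all those of Dis3 below 0.

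Many subunit genes start beside a gene on the opposite strand. Of the 10, 7 (70%) have such a head-to-head protein-coding partner with a start within 1000 bases, against 1962 of 14235 tested protein-coding genes (13.8%). The partner of Exosc5 is Bckdha (chr7:25629946-25658981, minus strand), a subunit of the branched-chain keto acid dehydrogenase, whose start lies 183 bases away. Bckdha stood at 133 and 124 CPM in KO1 and KO2 and at 43.5 and 14.1 CPM in WT1 and WT2 (2.15 ± 0.58 SE, adjusted p = 0.0821). Its knockouts were above both wild types, like those of Exosc5, but the wild types differed far more. Oplah, the 5-oxoprolinase gene that overlaps the start of Exosc4, was at 27.6 and 25.2 CPM against 13.9 and 4.08 CPM (1.55 ± 0.61 SE, adjusted p = 0.152). Pibf1, which overlaps the start of Dis3, was at 13.5 and 15.3 CPM against 29.9 and 25.1 CPM (-0.93 ± 0.18 SE, adjusted p = 0.0553). The other pairs were Exosc1 with Zdhhc16 (-0.21 ± 0.20 SE for the partner), Exosc3 with Dcaf10 (-0.49, paired by the GENCODE start of Exosc3, which the RefSeq window does not share), Exosc7 with Zdhhc3 (-0.41 ± 0.18 SE) and Exosc8 with Alg5 (-0.11 ± 0.14 SE). Across the 7 pairs, the log2 fold changes of subunit and partner had a Pearson correlation of 0.98, and of 0.85 with GC and length trends removed. This describes 7 pairs in the same libraries, and its range came from the pairs of Exosc4, Exosc5 and Dis3. In the remaining pairs the subunits ran only from -0.36 to 0.08 and the partners from -0.49 to -0.11. Where partners overlap (Exosc3, Exosc4 and Dis3), the reads in the overlap can be told apart only by strand, and the strand setting of the counting is not given in the sources used here.

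**Figure D5:**
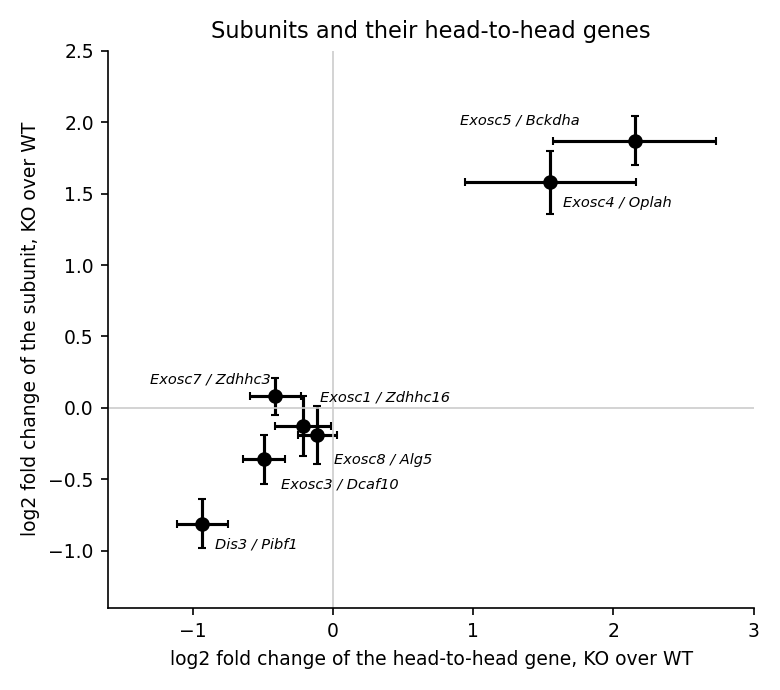
Log2 fold change of each subunit against that of its head-to-head gene, both knockout over wild type with SE, for the 7 pairs. Exosc4 and Exosc5 with their partners lie at the upper right, Dis3 with Pibf1 at the lower left, and the other 4 pairs near 0.

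The stretch between Exosc5 and Bckdha is shown because both genes stood higher in the knockouts. It is the RefSeq promoter window of Exosc5 (GRCm38.p6, chr7:25658903-25659202, plus strand, 57.3% GC), and the start of Bckdha lies inside it. Capitals mark an E-box (CACGTG, from base 207) and an NRF1 motif (10 letters from base 243).
Exosc5: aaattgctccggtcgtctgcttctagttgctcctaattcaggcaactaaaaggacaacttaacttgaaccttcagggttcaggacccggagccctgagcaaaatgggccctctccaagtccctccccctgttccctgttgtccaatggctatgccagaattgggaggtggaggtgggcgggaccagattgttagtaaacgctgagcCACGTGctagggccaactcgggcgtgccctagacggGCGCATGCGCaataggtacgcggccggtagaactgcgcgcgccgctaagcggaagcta

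The table of promoter windows held 9 windows of 8 subunits, so Exosc4 and Exosc9 were not searched. In it, searching both strands of 32851 windows of the same length, CACGTG was found in 7.15%, CCGGAAGT (ETS) in 3.89%, the NRF1 motif in 0.971% and the YY1 motif in 0.633%. Among these 8 subunits only Exosc5 held CACGTG and the NRF1 motif, and none held the other 2 motifs. A match describes letters and is not a measured site.

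Among genes that work with the exosome, the helicase gene Mtrex and the TRAMP gene Zcchc7 fell in the knockouts and Nop53 rose. Of 35 tested genes in the lists of cofactors, other exosome subunits and other exonucleases, 1 rose and 2 fell past the threshold (8.57%, against 5.45% of all genes), and the median log2 fold change was -0.39 (-0.18 with GC and length trends removed), beside -0.02 over all genes. Both knockouts lay below both wild types for 19 of them and above for 8 (34.8% and 36.5% over all genes). The count of calls was 0 without KO1 or without KO2 and 13 by DESeq2, which called 24.0% of the 16032 genes it gave an adjusted p. Mtrex, the helicase that feeds RNA to the nuclear exosome, stood at 171 and 172 CPM in KO1 and KO2 and at 283 and 307 CPM in WT1 and WT2, and fell by 0.78 on the log2 scale (± 0.12 SE, adjusted p = 0.0482). Zcchc7, which encodes the RNA-binding partner of a poly(A) polymerase in the TRAMP complex, stood at 32.7 and 31.8 CPM against 56.6 and 60.4 CPM (-0.86 ± 0.13 SE, adjusted p = 0.0482). Nop53, a nucleolar factor that links MTREX to pre-ribosomes, rose, with 204 and 192 CPM against 107 and 87.7 CPM (1.02 ± 0.15 SE, adjusted p = 0.0482). In these 3 genes the groups were well apart. After removal of the GC and length trends the values were -0.34 for Mtrex, -0.07 for Zcchc7 and 0.95 for Nop53, and none was called.

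The other nuclear cofactors were not called by edgeR. DESeq2 called 8 of all 21 nuclear cofactors (24.0% over all genes). These were Mtrex, Zcchc7 and Nop53, and also Zfc3h1, Pabpn1, C1d, Tent4b and Nvl. Zfc3h1, a scaffold that connects MTREX to polyadenylated nuclear RNA, was at 47.6 and 46.5 CPM against 90.9 and 155 CPM (-1.39 ± 0.29 SE, adjusted p = 0.0611), with the wild types far apart. Its partner gene Pabpn1, for the nuclear poly(A)-binding protein, was at 34.7 and 31.0 CPM against 18.5 and 19.9 CPM (0.78 ± 0.15 SE, adjusted p = 0.0557). The cofactors of EXOSC10, C1d and Mphosph6, had log2 fold changes of -0.64 ± 0.17 (SE, adjusted p = 0.0800) and -0.41 ± 0.16 (SE, adjusted p = 0.148). Rbm7 of the nuclear exosome targeting complex (-0.66 ± 0.24 SE), Tent4b, a poly(A) polymerase (-0.71 ± 0.17 SE), and Nvl, an ATPase of the nucleolus (-0.85 ± 0.21 SE), had adjusted p of 0.131, 0.0707 and 0.0719.

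In the cytoplasm, none of the 5 genes of the SKI complex and ribosome rescue passed the threshold by edgeR, 3 had an unadjusted p under 0.05 (37.1% over all genes), and DESeq2 called 2 (24.0% over all genes). Skiv2l, the SKI helicase, had a log2 fold change of 0.76 ± 0.15 (SE, adjusted p = 0.0587) and one of -0.17 after trend removal. Its partners Ttc37 and Wdr61 had values of -0.78 ± 0.24 (SE, adjusted p = 0.102) and -0.56 ± 0.21 (SE, adjusted p = 0.133). Dis3l, the cytoplasmic relative of Dis3, was at 28.0 and 26.4 CPM against 30.4 and 17.2 CPM, with overlap (0.19 ± 0.31 SE, adjusted p = 0.674). Among 8 other exonucleases none passed by edgeR, 3 had an unadjusted p under 0.05, and DESeq2 called 3, beside the same shares over all genes. Xrn1 and Xrn2, which degrade RNA from the 5' end, had values of -0.78 ± 0.14 (SE, adjusted p = 0.0529) and -0.65 ± 0.28 (SE, adjusted p = 0.175).

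Ribosomal RNA processing, the best known task of the nuclear exosome, was followed through 60 genes. Of these, 1 rose and 3 fell past the threshold (6.67%), near the 5.45% of all genes, and the median was -0.39 (-0.23 with trends removed). Both knockouts lay below both wild types for 41 and above for 14, where the shares over all genes were 34.8% and 36.5%. The genes that fell were Ddx21, a nucleolar helicase (260 and 269 CPM against 619 and 540 CPM, -1.13 ± 0.13 SE), Noc3l, a pre-ribosome factor (84.6 and 83.3 CPM against 173 and 164 CPM, -1.01 ± 0.12 SE), and Ddx10, a helicase of the small subunit pathway (130 and 136 CPM against 230 and 260 CPM, -0.88 ± 0.13 SE). Each had an adjusted p of 0.0482. Nhp2, a protein of the particles that pseudouridylate RNA, rose (213 and 211 CPM against 129 and 114 CPM, 0.80 ± 0.13 SE, adjusted p = 0.0499). After removal of the GC and length trends these were -0.83, -0.59, -0.43 and 0.34, and none was called.

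Small nucleolar RNAs that sit in introns are trimmed by the exosome. Of 24 tested host transcripts, 1 was called (4.17%, against 5.45% of all genes): Eef2, translation elongation factor 2, rose from 1950 and 1420 CPM in WT1 and WT2 to 4020 and 3950 CPM in KO1 and KO2 (1.24 ± 0.20 SE, adjusted p = 0.0499, and 0.45 with trends removed). The hosts had a median of -0.32, which was -0.08 with trends removed and 0.00 without WT2. Of 139 annotated genes of snoRNAs and the telomerase RNA (Terc), 55 passed the filter on low counts. Among these 1 was called (1.82%, against 5.45%), Snord104, at 3.56 and 3.24 CPM against 0.726 and 0.86 CPM (2.10 ± 0.28 SE, adjusted p = 0.0482). The set had a median of -0.67 (-0.21 with trends removed), and in 33 of the 55 both knockouts lay below both wild types (34.8% over all genes). Poly(A) selection takes little of mature snoRNA, and reads on a snoRNA gene can come from the host transcript, so these values do not measure snoRNA.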

How the data were processed

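Poly(A) RNA was counted in 2 KO and 2 WT libraries, grouped by title labels. The authors deposited unnormalised read counts for each Ensembl gene, from reads aligned with STAR 2.4.2a and counted with featureCounts 1.4.5-p1 on mm10, per the submitters' processing notes. The library protocol was reverse-stranded per the labels. The annotation release and options for strand, overlaps and multiple matches are not given in the sources used here. Symbols matched 97.3% of the 43629 identifiers.

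The test was edgeR 4.0.16 (R 4.3.3): TMM scaling, default filter (minimum count 10, minimum total 15), quasi-likelihood fit of group, Benjamini-Hochberg adjustment over all genes, threshold 0.05. The method was tested on simulated data with equal spread in both groups and no GC trend, unlike these libraries. Library ratios used a prior count of 2. Coordinates and transcripts came from GENCODE M21 (mm10), promoters and microRNAs from RefSeq. GC and length trends were lowess curves (span 0.3) removed as offsets. The GC content came from the longest transcript and the length from all annotated exons of the gene. The trends and lengths of the principal transcript were added after seeing the data. Alternatives were other scalings, no filter, DESeq2 1.42.0, a replicate block and leaving out each library. Sequences were searched and plots drawn with Python 3.11.15, numpy 2.4.6, pandas 2.3.3 and matplotlib 3.10.9.

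The subunits and gene lists were chosen with earlier results of these data known. Named genes were all subunits, Drosha and Dgcr8, list genes of the cofactor lists, and of the ribosomal RNA and snoRNA lists up to 3 called genes in each direction. Gpaa1, Ccna2 and the head-to-head genes were named for their position, after their values were seen. With 1 count worth 0.0236 to 0.0342 CPM before TMM scaling, depth was no limit for the subunits. No molecular identifiers were used. Since each allele and each wild-type passage has 1 library, a p-value here reflects only how far these libraries spread. That spread mixes allele or passage differences with technical ones.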

Additional observations from a re-analysis of the deposited data

How the results depend on the processing

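The 927 genes called became 0 with upper-quartile scaling (6267 at an unadjusted p under 0.05), library totals alone (6116), GC and length trends removed (4300), the same with the principal transcript (4022), and the replicate block with GC and length trends removed (3226). Under these 5 settings the subunits called (2), cofactors (3), ribosomal RNA processing genes (4) and snoRNA hosts (1) were all 0. Without the filter on low counts 2663 genes, 8 cofactors, 10 ribosomal RNA genes and 2 hosts were called. DESeq2 called 3851 genes (2073 higher, 1778 lower), with 13 cofactors, 19 ribosomal RNA genes and 4 hosts. Both called 3 subunits, Dis3 being the added one.

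Leaving out 1 library gave 0 (without KO1) to 13659 genes (without WT1), 22 without KO2 and 12089 without WT2. It gave 0 to 8 subunits, 0 to 33 cofactors, 0 to 56 ribosomal RNA genes and 0 to 21 hosts. With 1 library in an arm, that library is assumed to vary like the other group. Leaving out a wild type leaves the narrow KO pair to set the spread, and leaving out a knockout leaves the wide WT pair to set it.

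The replicate block called 1929 genes (1353 higher, 576 lower) and 7 ribosomal RNA genes, and left 2 subunits, 1 host and 3 cofactors called. The cofactor calls went from 1 higher and 2 lower to 2 higher and 1 lower. Mtrex (adjusted p = 0.0536), Zcchc7 (0.0501) and Nhp2 (0.0504) were then not called by edgeR, while Zfc3h1 (0.0271), Oplah (0.0379), Bckdha (0.0193) and Gpaa1 (0.0194) were. The deviations of same-numbered libraries had a correlation of 0.124 over 12583 genes, with only 2 pairs, so the numbers were not shown to pair the libraries.

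The subunit median of -0.15 became 0.17 with GC and length trends removed and 0.18 with the block as well, and was between -0.21 and 0.00 under the other settings. The level ratio of the highest to the lowest subunit in the knockouts, 3.0, was 2.71 with the longest transcript.

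Signs changed with library totals for Alg5 (0.03). With GC and length trends removed they changed for Dis3l (-0.13), C1d (0.06), Skiv2l (-0.17) and Alg5 (0.24), and with the replicate block added for Dis3l (-0.10), C1d (0.06), Skiv2l (-0.17) and Alg5 (0.24). With the principal transcript they changed for Pabpn1 (-0.25), C1d (0.15), Skiv2l (-0.09), Dcaf10 (0.05) and Alg5 (0.18), and without WT2 for Dis3l (-0.16, up to 0.66 without WT1) and Zdhhc16 (0.02, down to -0.42 without WT1). The causes were not tested.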
